A study of Mus musculus with 18 samples.

Results

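The 9 genes described here encode the enzymes that make serine from a glycolytic intermediate and pass its side-chain carbon to folate: *Phgdh*, *Psat1*, *Psph*, *Shmt1*, *Shmt2*, *Mthfd1*, *Mthfd1l*, *Mthfd2* and *Aldh1l2*. They were looked up by symbol in GENCODE M21, and 9 of 9 were found among the 55536 Ensembl genes of the count matrix. The RNA came from CD8+ T cells taken from mouse spleen and lymph nodes. All 3 groups carry the genotype label OT-I, the name of a mouse whose transgenic T cell receptor binds SIINFEKL, a peptide of ovalbumin. The libraries comprised 2 labelled Tra2bKO, 8 labelled control that carried a scrambled sequence, and 8 labelled naive. Tra2bKO and control cells had been stimulated for 4 days with this peptide together with anti-OX40 and anti-41BB, antibodies that trigger costimulation, and naive cells were taken at day 0. *Tra2b*, the targeted gene, encodes a splicing regulator, and the series' title concerns a poison exon of that gene. The labels used here do not say how *Tra2b* was disrupted, give no ages, and do not say whether libraries of 1 group came from separate animals. The p-values therefore measure the spread between these libraries only, which may be technical.

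Serine made in the cytosol enters mitochondria, where SHMT2 splits it into glycine and a one-carbon unit bound to tetrahydrofolate. MTHFD2 and MTHFD1L oxidise that unit and release it as formate, which MTHFD1 in the cytosol loads back onto folate for purine and thymidylate synthesis. SHMT1 interconverts serine and glycine in the cytosol, and ALDH1L2 is a mitochondrial enzyme that oxidises the formyl-folate to carbon dioxide while making NADPH. In T cells the mitochondrial arm is known to be induced after receptor stimulation. Several genes of the pathway, among them *Phgdh*, *Psat1*, *Shmt2*, *Mthfd2* and *Aldh1l2*, are known targets of the stress factor ATF4 in mammalian cells.

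Total counts per library were 79197461 and 93495846 in Tra2bKO, 73735681 to 93972513 in control and 68249844 to 86932452 in naive libraries. *Tra2b* itself stood at 361 and 371 CPM (counts relative to library size, scaled with TMM factors over all 18 libraries) in Tra2bKO libraries, against 338 to 526 CPM in control libraries, a log2 fold change of -0.34 (SE 0.13) that did not pass (edgeR adjusted p = 0.0899), so the gene count does not check the label. Its transcript Tra2b-206, annotated as subject to nonsense-mediated decay, held 1.02% of the *Tra2b* count in both Tra2bKO libraries, against 3.73 to 10.7% in control and 9.07 to 14.5% in naive libraries. *Trbv12-1*, the beta chain segment of the OT-I receptor, held 99.5 and 99.7% of Trbv counts in Tra2bKO, 99.7 to 99.9% in control and 5.96 to 12.5% in naive libraries, so the naive libraries go against their genotype label. Stimulation and the source of the naive cells cannot be told apart, and naive is used below as a label only. *Cd8a* stood at 496 ± 73.2 CPM in Tra2bKO (SD, n = 2), 453 ± 42.2 CPM in control and 1009 ± 80.9 CPM in naive libraries (SD, n = 8 each). Summed levels of 14 dendritic cell and macrophage markers were 160 to 197 CPM in Tra2bKO, 170 to 489 CPM in control and 1221 to 3478 CPM in naive libraries. Those of 14 B cell markers were 685 to 866, 411 to 491 and 802 to 1411 CPM in the same 3 groups, and those of 9 NK cell markers 159 to 169, 53.3 to 180 and 239 to 575 CPM. *Ighm* made up most of the B cell sum, at means of 717, 406 and 832 CPM. *Gzma* (97.9, 60.1 and 215.7 CPM) and *Eomes* (58.7, 26.2 and 94.5 CPM) made up most of the NK cell sum. These sums thus mainly follow those genes and not the other markers of the lists. Summed levels of 7 erythroid and platelet markers were 103 and 10.9 CPM in Tra2bKO libraries 1 and 2, against 0.389 to 13.4 CPM in control and 1.93 to 32.1 CPM in naive libraries. In Tra2bKO against control libraries 1 of 8 CD8 T cell genes was lower (*Lck*, -0.32), 1 of 12 tested B cell markers higher (*Ighm*, 0.83), 0 of 13 dendritic cell and macrophage and 0 of 8 NK cell markers were called (edgeR adjusted p under 0.05), and 4 of 7 erythroid and platelet markers were higher, all 4 of which lost the call without either Tra2bKO library. Wherever a Tra2bKO library is left out, 1 remains, and it is assumed to vary like the libraries of the other group. At an unadjusted p under 0.05 the dendritic cell and macrophage list had 3 higher and 5 lower and the NK cell list 0 higher and 1 lower, and DESeq2 called 1 higher and 5 lower of the first and 0 of the second. In control against naive libraries the markers called were all lower, at 7 of 8, 10 of 12, 13 of 13, 7 of 9 and 1 of 5 for the same 5 lists. Some of these markers, such as *Clec9a* and *Klra8*, entered this test only through the naive libraries, where they are higher. *Clec9a* reached at most 0.203 CPM in control libraries and stood at 5.39 CPM or more in naive libraries. *Klra8* was listed at 0 in control libraries, against 0.287 to 2.198 CPM in naive libraries. The direction of such calls was set by the filter. The median summed level of B, dendritic and NK cell markers was thus highest in naive libraries, and the part of this in the differences from naive libraries given below was not tested. In these bulk libraries fewer cells of a type and less RNA per cell cannot be told apart.

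The bases before the start sites of *Shmt2* with *Shmt1* and of *Mthfd2* with *Mthfd1* are shown. The comparison of these mitochondrial and cytosolic partners runs through the results below. The window of *Mthfd1l* is not shown, though the ratio of *Mthfd1l* to *Mthfd1* also differed between Tra2bKO and control libraries. The sequences are the 250 bases before the RefSeq start (GRCm38.p6), read 5′ to 3′ on the gene's strand, with CpG dinucleotides in capitals. *Shmt2* lies on the minus strand (chr10:127522445-127522694), *Shmt1* on the minus strand (chr11:60811266-60811515), *Mthfd2* on the minus strand (chr6:83317605-83317854) and *Mthfd1* on the plus strand (chr12:76254982-76255231).
Shmt2: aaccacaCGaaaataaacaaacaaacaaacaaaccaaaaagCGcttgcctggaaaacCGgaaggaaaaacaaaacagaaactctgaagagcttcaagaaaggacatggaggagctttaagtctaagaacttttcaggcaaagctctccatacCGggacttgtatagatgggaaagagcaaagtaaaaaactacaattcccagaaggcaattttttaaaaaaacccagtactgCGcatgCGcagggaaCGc
Shmt1: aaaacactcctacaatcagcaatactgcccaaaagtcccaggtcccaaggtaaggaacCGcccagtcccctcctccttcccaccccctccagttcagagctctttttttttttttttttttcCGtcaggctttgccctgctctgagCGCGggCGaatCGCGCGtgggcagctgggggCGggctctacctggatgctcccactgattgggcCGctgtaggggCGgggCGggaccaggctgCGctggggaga
Mthfd2: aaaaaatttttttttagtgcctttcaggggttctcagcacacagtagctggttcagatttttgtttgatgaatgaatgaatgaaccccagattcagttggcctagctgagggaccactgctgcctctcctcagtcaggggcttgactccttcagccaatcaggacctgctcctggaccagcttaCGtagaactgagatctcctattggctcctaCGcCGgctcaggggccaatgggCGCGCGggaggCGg
Mthfd1: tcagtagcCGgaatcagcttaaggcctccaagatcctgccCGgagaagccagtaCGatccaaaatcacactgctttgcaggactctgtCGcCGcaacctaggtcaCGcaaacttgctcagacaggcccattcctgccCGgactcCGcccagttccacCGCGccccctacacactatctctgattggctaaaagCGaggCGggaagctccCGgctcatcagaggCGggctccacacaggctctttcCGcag
The windows of *Shmt2* and *Mthfd2* hold 7 CpGs, against 13 for *Shmt1* and 15 for *Mthfd1*, where the median of 32851 RefSeq promoters is 6. Those of *Mthfd1l* and of *Phgdh*, a gene of cytosolic serine synthesis, also hold 7, and those of *Psat1* (16 and 24) and *Psph* (23) more. The number 7 is thus not particular to the mitochondrial genes. A RefSeq promoter was matched for 8 of 9 genes (9 promoters, since *Psat1* has 2), and *Aldh1l2* had none. Over the 300-base windows that also include the first 50 transcribed bases, neither TGATGNAA, the core of the element bound by ATF4 with C/EBP partners, nor CACGTG, the E-box bound by MYC and MAX, was found on either strand in the 9 windows (0 of 9 for each motif). These letters occur in 3.97% and 7.15% of all windows of that length, and neither motif contains the other.

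In the Tra2bKO libraries 3 of the 9 genes were higher than in control libraries (*Aldh1l2*, *Mthfd2* and *Shmt2*) and 0 were lower, where 7.62% of the 18651 genes tested were called higher and 7.24% lower (edgeR's quasi-likelihood test, Benjamini-Hochberg adjusted p under 0.05). *Aldh1l2* entered this test only through the Tra2bKO libraries, where it is high, since control libraries held 6 counts in all, and without it 2 of the other 8 genes were called. At an unadjusted p under 0.05, 5 of 9 were higher and 2 lower, and DESeq2 called 3 higher and 1 lower. The median log2 fold change of the 9 was 0.18, and that of all genes tested -0.01. In control libraries 8 of 8 tested genes were higher than in naive libraries, where 32.5% of 17078 genes were called higher and 39% lower, with a median of 1.01 for the 8 genes and -0.08 for all genes. *Aldh1l2* was too low to be tested there. In Tra2bKO libraries 9 of 9 were higher than in naive libraries, where 21.1% of 19776 genes were called higher and 23.6% lower, with a median of 1.08 against -0.08 for all genes. *Aldh1l2* entered this test too only through the Tra2bKO libraries, and without it the other 8 genes were all called higher. Each pair of these comparisons shares the libraries of 1 group. Without Tra2bKO library 2 the genes called between Tra2bKO and control libraries numbered 651 in place of 2772.

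**Figure D1:**
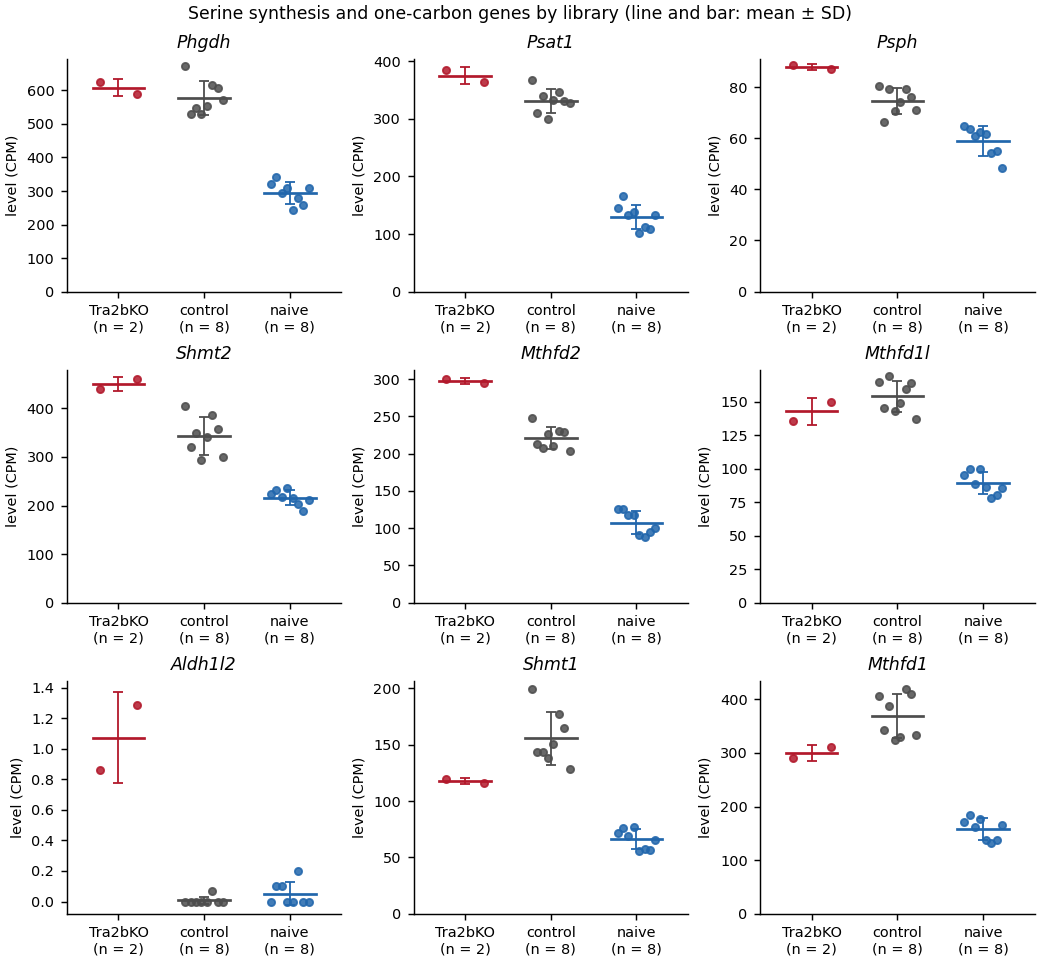
Level of each gene in every library (CPM, linear axes from 0 or just below it), with Tra2bKO, control and naive groups from left to right and the mean ± SD as line and bar. Except for *Aldh1l2*, the naive libraries lie lowest in every panel, while the Tra2bKO libraries lie above all controls for *Psph*, *Shmt2*, *Mthfd2* and *Aldh1l2* and below all of them for *Shmt1* and *Mthfd1*.

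*Phgdh* (ENSMUSG00000053398.11, chr3:98313170-98339990, minus strand) encodes the enzyme that oxidises 3-phosphoglycerate, the first step of serine synthesis. It stood at 626 and 589.5 CPM in Tra2bKO libraries, and at 528 to 672 CPM (median 562) in control libraries and 244 to 340.4 CPM (median 301) in naive libraries. Tra2bKO and control values overlapped, with a log2 fold change of 0.08 (SE 0.09, edgeR adjusted p = 0.600), and both groups lay above every naive library. The level was 1.97-fold higher in control than in naive libraries (log2 fold change 0.97, SE 0.07, edgeR adjusted p = 1.69e-09) and 2.11-fold higher in Tra2bKO than in naive libraries (1.08, SE 0.11, edgeR adjusted p = 9.21e-06). *Phgdh* has 9 processed pseudogenes with at least 95% identity. The most counted of them, *Gm7901* (98.8% identical over 1597 bases), stood at 9.94 to 12.6 CPM in Tra2bKO, 9.04 to 11.7 CPM in control and 4.60 to 6.51 CPM in naive libraries, so a small part of the *Phgdh* count is uncertain.

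*Psat1* (ENSMUSG00000024640.9, chr19:15904678-15947337, minus strand) encodes the aminotransferase of the next step. Its level was 385 and 364 CPM in Tra2bKO libraries, 300.0 to 367 CPM (median 332) in control libraries and 101 to 165 CPM (median 133) in naive libraries. One Tra2bKO library lay above all controls and the other just inside their range (0.18, SE 0.07, edgeR adjusted p = 0.100). The difference passed without control library 1, the highest control (0.21, edgeR adjusted p = 0.0400). Among the 8 tested genes *Psat1* had the largest difference between control and naive libraries, 2.56-fold (log2 fold change 1.35, SE 0.09, edgeR adjusted p = 3.27e-10), and it was 2.96-fold higher in Tra2bKO than in naive libraries (1.56, SE 0.14, edgeR adjusted p = 4.65e-06).

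*Psph* (ENSMUSG00000029446.14, chr5:129765558-129787449, minus strand) encodes the phosphatase that releases serine. It stood at 88.6 and 86.9 CPM in Tra2bKO libraries, 66.2 to 80.4 CPM (median 75.2) in control libraries and 48.2 to 64.9 CPM (median 61.3) in naive libraries, and the 3 ranges did not overlap. The difference of Tra2bKO from control libraries missed the threshold (0.24, SE 0.08, edgeR adjusted p = 0.0540) and passed without control library 1 (edgeR adjusted p = 0.0384) and by DESeq2 (adjusted p = 0.0139). Control libraries were 1.27-fold above naive libraries (0.34, SE 0.06, edgeR adjusted p = 6.00e-05), the smallest difference of the 8 genes tested, and Tra2bKO libraries 1.53-fold (0.61, SE 0.10, edgeR adjusted p = 0.000450). The exons of *Psph* share 452 bases with *Cct6a*, a chaperonin gene on the other strand that stood at 793 to 848 CPM in Tra2bKO, 759 to 965 CPM in control and 420 to 542 CPM in naive libraries. *Cct6a* was higher in control than in naive libraries (0.82, SE 0.07, edgeR adjusted p = 6.12e-09), and the sources used here do not give the strand setting of the counting, so reads of the shared bases cannot be assigned to 1 of the genes.

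*Shmt2* (ENSMUSG00000025403.5, chr10:127517123-127522444, minus strand), whose enzyme splits serine in mitochondria, stood at 441 and 461 CPM in Tra2bKO libraries. Control libraries had 293 to 405 CPM (median 345) and naive libraries 188 to 236 CPM (median 217), so the 3 groups did not overlap. Tra2bKO libraries were 1.32-fold above controls (0.40, SE 0.10, edgeR adjusted p = 0.0238). This call was lost when either Tra2bKO library was left out, at 0.42 (edgeR adjusted p = 0.0804) without library 1 and 0.37 (edgeR adjusted p = 0.193) without library 2. The level was 1.59-fold higher in control than in naive libraries (0.67, SE 0.07, edgeR adjusted p = 6.36e-08) and 2.13-fold higher in Tra2bKO than in naive libraries (1.09, SE 0.08, edgeR adjusted p = 8.29e-07).

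*Shmt1* (ENSMUSG00000020534.14, chr11:60788104-60811718, minus strand) encodes the cytosolic counterpart. It had 120 and 116 CPM in Tra2bKO libraries, 129 to 199 CPM (median 147) in control libraries and 55.6 to 77.2 CPM (median 67.5) in naive libraries. Both Tra2bKO values lay below all 8 controls and above all 8 naive libraries. The difference of Tra2bKO from control libraries was -0.40 (SE 0.14), which missed the threshold (edgeR adjusted p = 0.0766) and passed by DESeq2 (adjusted p = 0.0438). Control libraries were 2.35-fold above naive libraries (1.23, SE 0.10, edgeR adjusted p = 3.13e-09), and Tra2bKO libraries 1.82-fold (0.86, SE 0.12, edgeR adjusted p = 0.000127). *Smcr8* overlaps *Shmt1* by 184 bases on the other strand and stood at 12.5 to 32.7 CPM in Tra2bKO, 7.69 to 13.4 CPM in control and 8.51 to 15.2 CPM in naive libraries.

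*Mthfd2* (ENSMUSG00000005667.8, chr6:83305691-83325908, minus strand) encodes the mitochondrial dehydrogenase and cyclohydrolase that follows SHMT2. Levels were 300.4 and 295 CPM in Tra2bKO libraries, 204 to 248 CPM (median 219.9) in control libraries and 88.7 to 126 CPM (median 109) in naive libraries, with no overlap. Tra2bKO libraries were 1.35-fold above controls (0.43, SE 0.07, edgeR adjusted p = 0.00287), and the call held when any 1 library was left out (edgeR adjusted p from 0.00115 to 0.0309). The level was 2.06-fold higher in control than in naive libraries (1.04, SE 0.08, edgeR adjusted p = 2.60e-09) and 2.83-fold higher in Tra2bKO than in naive libraries (1.5, SE 0.13, edgeR adjusted p = 3.03e-06). *Gm43890*, which overlaps it on the same strand, stood at 2.98 to 4.79 CPM in Tra2bKO, 1.04 to 3.18 CPM in control and 0.939 to 2.34 CPM in naive libraries.

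*Mthfd1l* (ENSMUSG00000040675.17, chr10:3973118-4167081, plus strand) encodes the mitochondrial synthetase that releases formate. It had 136 and 150.3 CPM in Tra2bKO libraries and 137 to 169 CPM (median 154) in control libraries, so 1 Tra2bKO library lay just below the controls and the other among them, with a log2 fold change of -0.10 (SE 0.08, edgeR adjusted p = 0.462). Naive libraries averaged 89.3 ± 8.27 CPM (SD, n = 8) and every one lay below every stimulated library. Control libraries were 1.73-fold above them (0.79, SE 0.06, edgeR adjusted p = 2.73e-09) and Tra2bKO libraries 1.64-fold (0.71, SE 0.10, edgeR adjusted p = 8.52e-05).

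*Aldh1l2* (ENSMUSG00000020256.14, chr10:83487450-83534140, minus strand) was the least counted of the 9. It had 0.860 and 1.28 CPM in Tra2bKO libraries. Of the controls 7 of 8 were listed at 0 and library 6 had 0.0665 CPM, and of the naive libraries 5 of 8 were listed at 0 and the highest had 0.198 CPM. Both Tra2bKO libraries thus lay above the other 16. The summed counts were 184 in 2 Tra2bKO libraries, 6 in 8 control libraries and 35 in 8 naive libraries. Scaled to depth, this is a rate 117 times higher in Tra2bKO than in control libraries (95% interval 52.9 to 324, counting error only) and 19.4 times higher than in naive libraries (13.5 to 28.7). *Aldh1l2* entered the tests against control and against naive libraries only through the Tra2bKO libraries, where it is high. The fitted log2 fold changes were 5.05 (SE 0.82, edgeR adjusted p = 0.00244) against control and 3.86 (SE 1.07, edgeR adjusted p = 0.0108) against naive libraries. DESeq2 did not call the first (adjusted p = 0.0957), and the second was lost without Tra2bKO library 2 (edgeR adjusted p = 0.0867). Of the counts, 182 of 184 in Tra2bKO libraries belonged to the full-length coding transcript Aldh1l2-201. Its exons share 1056 bases with *D10Wsu102e* on the other strand, which stood at 36.4 to 39.9 CPM in Tra2bKO, 29.7 to 40.6 CPM in control and 32.5 to 45.7 CPM in naive libraries, far above *Aldh1l2* in every group. With the strand setting not given, reads of those bases cannot be assigned to 1 of the genes, and the *Aldh1l2* counts are uncertain to that extent.

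*Mthfd1* (ENSMUSG00000021048.7, chr12:76255298-76319803, plus strand) encodes the cytosolic enzyme that joins formate to folate and carries the dehydrogenase and cyclohydrolase activities of that compartment. It had 289.9 and 311 CPM in Tra2bKO libraries, 323 to 419.5 CPM (median 365) in control libraries and 132 to 184 CPM (median 164) in naive libraries. The 3 ranges did not overlap, with Tra2bKO between the others. The difference of Tra2bKO from control libraries, -0.29 (SE 0.11), missed the threshold (edgeR adjusted p = 0.0879). Control libraries were 2.33-fold above naive libraries (1.22, SE 0.08, edgeR adjusted p = 6.76e-10) and Tra2bKO libraries 1.94-fold (0.96, SE 0.12, edgeR adjusted p = 4.63e-05).

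**Figure D2:**
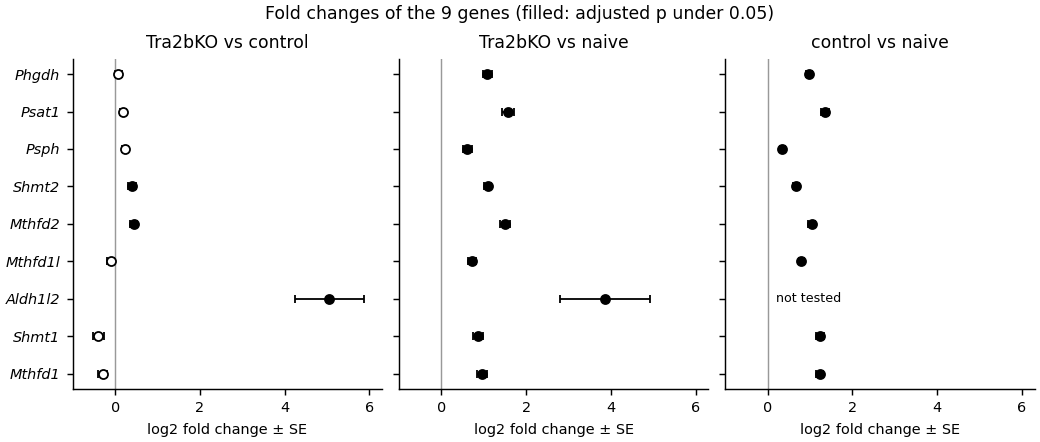
Log2 fold change ± SE of the 9 genes in the 3 comparisons, with filled points for adjusted p under 0.05. All tested points lie above 0 against naive libraries, whereas against control libraries 3 of 9 are filled and *Shmt1*, *Mthfd1* and *Mthfd1l* lie below 0.

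The ranges of Tra2bKO and control libraries were apart for 6 of the 9 genes, with Tra2bKO higher for *Psph*, *Shmt2*, *Mthfd2* and *Aldh1l2* and lower for *Shmt1* and *Mthfd1*. Of these, *Psph*, *Shmt1* and *Mthfd1* were not called by edgeR. The share of all tested genes with ranges apart was not computed, so this count does not set the 9 genes apart from others. Within the control group 1 library was high for many of these genes together. Control library 1 had the highest level of 6 of the 8 genes other than *Aldh1l2*, and control library 4 the lowest level of 4 of 8. For these 8 genes the coefficient of variation over control libraries ran from 6.28% (*Psat1*) to 15% (*Shmt1*), and over naive libraries from 7.04% (*Shmt2*) to 16.3% (*Psat1*).

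Levels of different genes were compared per kilobase of the main transcript. In Tra2bKO libraries the order ran from *Phgdh* at 321 ± 13.5 CPM per kb through *Shmt2* at 197 ± 6.17 to *Psat1* at 143 ± 5.55 and *Mthfd2* at 143 ± 1.9, which overlapped (SD, n = 2). *Mthfd1* followed at 92.7 ± 4.63 and *Psph* at 50.6 ± 0.663, then *Shmt1* at 41.3 ± 0.854 and *Mthfd1l* at 40.5 ± 2.90 CPM per kb, which overlapped, and *Aldh1l2* at 0.178 ± 0.0498. Control libraries put *Phgdh* first as well, at 305 ± 26.4 CPM per kb (SD, n = 8). Next came *Shmt2* (150.3 ± 17.1), *Psat1* (127 ± 7.96), *Mthfd1* (114 ± 12.6) and *Mthfd2* (106 ± 7.20), each overlapping its neighbour, and then *Shmt1* (54.5 ± 8.17), *Mthfd1l* (43.6 ± 3.35) and *Psph* (43.1 ± 2.91). In naive libraries *Phgdh* stood at 155 ± 17.1 and *Shmt2* at 94.4 ± 6.64 CPM per kb, apart from each other and from the rest (SD, n = 8). *Mthfd2* (51.6 ± 7.52), *Psat1* (49.5 ± 8.09) and *Mthfd1* (48.8 ± 6.24) could not be ordered beyond their spread. *Psph* (34.0 ± 3.33) lay above *Shmt1* (23.2 ± 3.04) with no overlap, and *Mthfd1l* (25.3 ± 2.34) overlapped both. *Mthfd2* thus stood above *Mthfd1* in Tra2bKO libraries with no overlap, while their ranges overlapped in the other 2 groups.

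The balance between compartments was read within each library as the ratio of the mitochondrial to the cytosolic gene's count, which does not depend on library scaling. All 9 differences, of 3 ratios in 3 comparisons, had an adjusted p under 0.05 (exact two-sided permutation tests, Benjamini-Hochberg over 9). The ratio of *Shmt2* to *Shmt1* counts was 3.69 and 3.97 in Tra2bKO libraries, 2.03 to 2.44 (median 2.21) in control libraries and 3.05 to 3.89 (median 3.19) in naive libraries. Tra2bKO libraries lay above all controls, and control libraries below all naive libraries. On the log2 scale the ratio was 0.79 higher in Tra2bKO than in control libraries (exact permutation p = 0.0222, adjusted p = 0.025) and 0.56 lower in control than in naive libraries (difference -0.56, exact permutation p = 0.000155, adjusted p = 0.000699). It was 0.22 higher in Tra2bKO than in naive libraries, where the ranges overlapped (exact permutation p = 0.0444, adjusted p = 0.0444). This call was lost without any 1 of the naive libraries except library 5 (adjusted p = 0.0556 each). It was also lost without control library 1, 7 or 8 (adjusted p = 0.05 each), though no control library enters this test. There only the adjustment over 9 tests changed, and the exact p did not.

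The ratio of *Mthfd2* to *Mthfd1* counts was 1.04 and 0.948 in Tra2bKO libraries, above every other library. It was 0.534 to 0.700 (median 0.611) in control libraries and 0.601 to 0.737 (median 0.678) in naive libraries. The log2 differences were 0.72 for Tra2bKO against control (exact permutation p = 0.0222, adjusted p = 0.025), -0.18 for control against naive with overlapping ranges (exact permutation p = 0.00808, adjusted p = 0.0242) and 0.54 for Tra2bKO against naive libraries (exact permutation p = 0.0222, adjusted p = 0.025). *Mthfd1l* over *Mthfd1* was 0.469 and 0.483 in Tra2bKO libraries, 0.381 to 0.451 (median 0.418) in control libraries and 0.513 to 0.634 (median 0.559) in naive libraries, with no overlap between groups. Its log2 differences were 0.19 for Tra2bKO against control, -0.44 for control against naive and -0.25 for Tra2bKO against naive libraries (exact permutation tests, adjusted p = 0.025, 0.000699 and 0.025). The first of these was lost without control library 1, 7 or 8 (adjusted p = 0.0556 each). The smallest p that 2 against 8 libraries can give is 0.0222, and 0.000155 for 8 against 8. With p counted as 2 times the smaller tail, a choice made after seeing the data, the 6 ratio differences of Tra2bKO libraries no longer passed and 3 of 9 remained under the threshold.

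**Figure D3:**
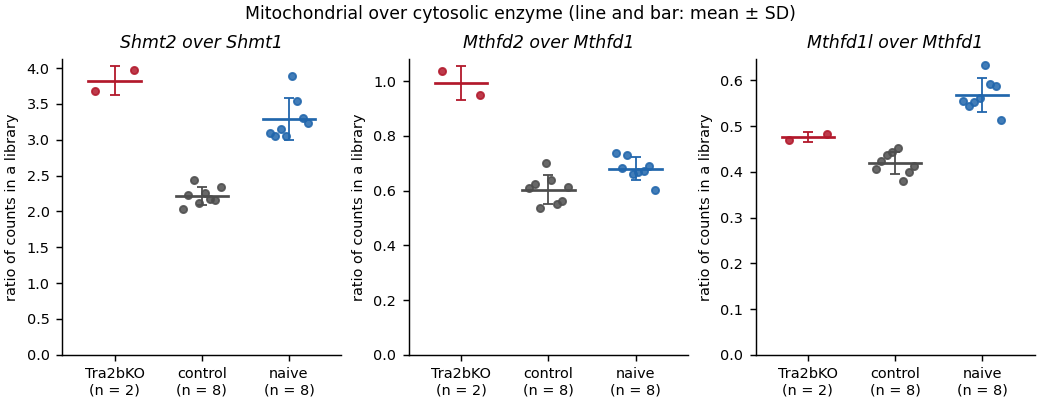
Ratio of the mitochondrial to the cytosolic gene's count in each library, with Tra2bKO, control and naive groups from left to right and the mean ± SD as line and bar. The 2 Tra2bKO libraries lie above all controls in every panel and above all naive libraries only for *Mthfd2* over *Mthfd1*.

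The transcript table splits each count among annotated isoforms, as estimated by the authors' tool. Shares of the main transcript were compared for 8 genes in 3 comparisons, and 2 of the 24 differences passed (exact permutation tests, adjusted over 24). Both were between control and naive libraries. Psph-201 held 96.2 ± 1.03% of the *Psph* count in control libraries and 88.7 ± 7.46% in naive libraries (SD, n = 8 each, exact permutation adjusted p = 0.00187), against 96.4 ± 0.162% in Tra2bKO libraries (SD, n = 2). Naive library 8 stood at 70.5%, against 89.7 to 92.6% in the other naive libraries, and without it the difference fell to 4.87 percentage points in place of 7.48 (adjusted p = 0.00187). Mthfd2-201 held 99.3 ± 0.146% of the *Mthfd2* count in control and 97.8 ± 0.604% in naive libraries (SD, n = 8 each, exact permutation adjusted p = 0.00187), against 99.5 ± 0.00685% in Tra2bKO libraries (SD, n = 2). Comparisons of 2 Tra2bKO libraries cannot give an exact p below 0.0222, which passes an adjustment over 24 tests only if many tests tie, so they could hardly be called. Against control libraries 0 of 8 shares had an unadjusted exact p under 0.05, and against naive libraries Mthfd2-201 was at the smallest p possible (exact p = 0.0222, adjusted p = 0.178). Mthfd1-201 averaged 44.5% in Tra2bKO and 84.9% in naive libraries (exact permutation p = 0.0444, adjusted p = 0.267). The 2 coding transcripts of *Mthfd1* were divided very unevenly: Mthfd1-201 held 35.7 to 53.3% in Tra2bKO, 51.5 to 99.8% in control and 46.1 to 99.6% in naive libraries. The control and naive libraries alone thus covered a wide range, and Tra2bKO library 1, at 35.7%, lay below all of them.

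Transcripts annotated as retained introns or as processed without a coding sequence took a larger share in naive libraries for some of the 8 genes. For *Psph* they held 1.84 and 1.71% in Tra2bKO libraries, 1.17 to 2.55% in control and 4.97 to 7.19% in naive libraries. For *Shmt2* the shares were 1.02 and 1.01% in Tra2bKO, 0.766 to 1.64% in control and 2.61 to 4.88% in naive libraries. *Mthfd1* had 0.266 and 0.222%, 0.117 to 0.224% and 0.405 to 0.842% in the same groups. In these 3 genes every naive library lay above every stimulated library, while the *Shmt1* shares overlapped (0.737 to 0.816% in Tra2bKO, 0.416 to 1.28% in control and 0.452 to 2.78% in naive libraries). For *Mthfd1l* the shares also overlapped (0.0236 ± 0.0334% in Tra2bKO, 0.0231 ± 0.0339% in control and 0.0123 ± 0.0259% in naive libraries, SD, n = 2, 8 and 8), and for *Phgdh*, *Psat1* and *Mthfd2* the control and naive ranges overlapped. The genes shown in full were chosen for display after their values were seen, and the shares carry no test.

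**Figure D4:**
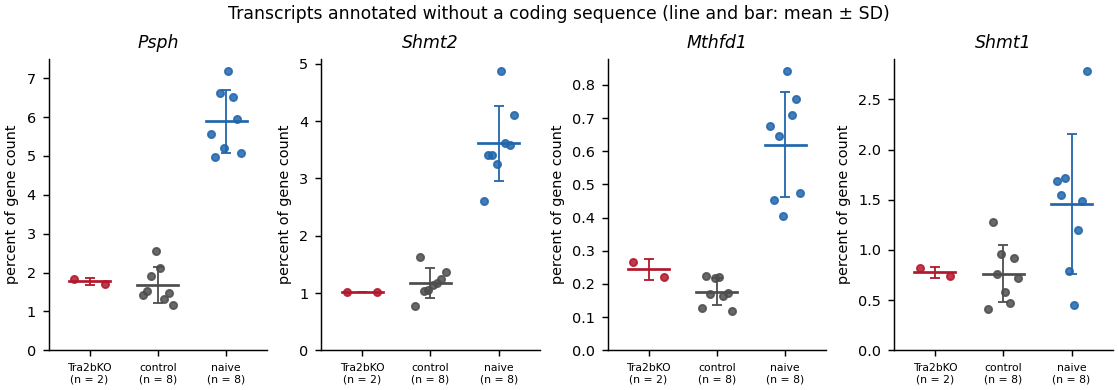
Percent of each gene's count assigned to transcripts annotated without a coding sequence, by library, with Tra2bKO, control and naive groups from left to right and the mean ± SD as line and bar. Naive libraries lie above all others for *Psph*, *Shmt2* and *Mthfd1*, and overlap them for *Shmt1*.

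The supply of serine was represented by 11 transporters of serine and glycine, of which 9 were tested. Between Tra2bKO and control libraries 3 of 9 were higher and 0 lower, with a list median log2 fold change of 0.13 against -0.01 for all genes. *Slc1a4*, a neutral amino acid exchanger that carries serine, averaged 16.6 ± 5.73 CPM in Tra2bKO (SD, n = 2) and 3.05 ± 0.812 CPM in control libraries (SD, n = 8), a log2 fold change of 2.44 (SE 0.24, edgeR adjusted p = 0.000155). *Slc6a9*, the glycine transporter GlyT1, averaged 2.82 ± 0.660 and 0.237 ± 0.146 CPM in these groups (3.44, SE 0.61, edgeR adjusted p = 0.00366), and lost the call without Tra2bKO library 2 (edgeR adjusted p = 0.0606). *Slc38a2*, a sodium-coupled carrier of small neutral amino acids, averaged 172 ± 50.4 and 132 ± 5.97 CPM (0.38, SE 0.11, edgeR adjusted p = 0.0358), and without Tra2bKO library 2 its log2 fold change was 0.06 (edgeR adjusted p = 0.772). That call was also lost without 1 of 5 control libraries in turn. Without Tra2bKO library 2, 1 transporter remained called, *Slc1a4* (2.05, edgeR adjusted p = 0.00497). 1 of 9 was lower at an unadjusted p under 0.05 and 0 by DESeq2. *Sfxn1*, the mitochondrial serine carrier, was not called (242 ± 16.8 and 283 ± 23.6 CPM, -0.22, edgeR adjusted p = 0.135). In control against naive libraries 3 of 9 transporters were higher and 5 lower (list median -0.16): *Sfxn1* was higher at 0.82 and *Slc38a1* at 0.29, while *Sfxn3* was lower at -1.28 and *Sfxn2* at -0.81. Tra2bKO against naive libraries gave 4 higher and 3 lower of 9, with *Slc1a4* at 3.85.

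Among 14 other genes of folate uptake, storage and interconversion found in the files, 1 of 10 tested was higher and 2 were lower in Tra2bKO than in control libraries (list median 0.05). *Mthfs*, which recycles 5-formyl-folate, averaged 19.9 ± 3.51 CPM in Tra2bKO and 29.1 ± 1.59 CPM in control libraries (-0.54, edgeR adjusted p = 0.00712). *Slc19a1*, the reduced folate carrier, averaged 58.1 ± 3.73 and 88.7 ± 14.1 CPM (-0.61, edgeR adjusted p = 0.0210), and *Ggh*, which trims folate polyglutamates, 51.0 ± 2.92 and 37.6 ± 5.60 CPM (0.45, edgeR adjusted p = 0.0478). Leaving out Tra2bKO library 2 ended all 3 calls, at log2 fold changes of -0.36 for *Mthfs*, -0.66 for *Slc19a1* and 0.51 for *Ggh* (edgeR adjusted p = 0.136, 0.127 and 0.175). Leaving out library 1 ended those of *Slc19a1* (-0.55, edgeR adjusted p = 0.121) and *Ggh* (0.37, edgeR adjusted p = 0.242). The *Ggh* call was also lost without any 1 of 6 control libraries. In control against naive libraries 5 of 11 were higher and 3 lower (list median 0.12). *Slc19a1* was higher at 0.83 (SE 0.08) and *Ggh* at 0.82 (SE 0.11), while *Aldh1l1*, the cytosolic relative of *Aldh1l2*, averaged 0.0275 CPM in control and 1.12 CPM in naive libraries (-4.44, SE 0.61). *Aldh1l1* entered this test only through the naive libraries, where it is higher. In Tra2bKO against naive libraries 4 of 11 were higher and 2 lower. *Aldh1l1*, among the lower genes, entered this test too only through the naive libraries.

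The genes that use one-carbon units for nucleotides were higher in both stimulated groups than in naive libraries. All 7 tested were higher in control than in naive libraries (list median 0.92), and 7 of 7 in Tra2bKO than in naive libraries (1.05). *Tyms*, thymidylate synthase, averaged 360 ± 13.8 CPM in control and 134 ± 29.4 CPM in naive libraries (1.43, SE 0.11, edgeR adjusted p = 2.07e-09). *Paics*, a purine synthesis enzyme, averaged 591 ± 41.9 and 283 ± 22.1 CPM (1.06, SE 0.06, edgeR adjusted p = 2.60e-11). Between Tra2bKO and control libraries 0 of 7 were higher (1 at an unadjusted p under 0.05 and 0 by DESeq2) and 2 lower. *Atic*, which adds the last carbon of the purine ring, averaged 73.6 ± 4.75 CPM in Tra2bKO and 97.6 ± 7.72 CPM in control libraries (-0.40, SE 0.09, edgeR adjusted p = 0.0113), and *Tyms* 307 ± 6.34 and 360 ± 13.8 CPM (-0.22, SE 0.06, edgeR adjusted p = 0.0197). The *Atic* call was lost without either Tra2bKO library (-0.35, edgeR adjusted p = 0.0845 without library 1, and -0.46, edgeR adjusted p = 0.0666 without library 2), and that of *Tyms* without library 2 (-0.19, edgeR adjusted p = 0.209). Of 12 genes of DNA replication, 12 were higher in control than in naive libraries, such as *Mcm2* at 1.15 (SE 0.08), and 12 in Tra2bKO than in naive libraries. Between Tra2bKO and control libraries 2 of 12 were lower: *Rrm2*, a ribonucleotide reductase subunit, at -0.52 (SE 0.07) and *Tk1*, thymidine kinase, at -0.28 (SE 0.06), the second lost without Tra2bKO library 2 (edgeR adjusted p = 0.149). 0 of 12 were higher by edgeR, at an unadjusted p under 0.05 or by DESeq2.

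Glycine cleavage, the methionine cycle, transsulfuration and other serine-using enzymes showed few differences between Tra2bKO and control libraries. Of the glycine cleavage system and mitochondrial folate users 0 of 5 were called by edgeR, 0 had an unadjusted p under 0.05 and 0 were called by DESeq2. In the methionine cycle list 1 of 8 was higher, *Ahcyl2*, a relative of adenosylhomocysteine hydrolase. It averaged 99.5 ± 37.0 CPM in Tra2bKO and 44.2 ± 8.32 CPM in control libraries (1.17, SE 0.20, edgeR adjusted p = 0.00309), a call lost without Tra2bKO library 2 (log2 fold change 0.75). *Ahcy*, the gene of the hydrolase itself, was not called (126 ± 10.2 and 144 ± 11.8 CPM, -0.19, edgeR adjusted p = 0.189). In transsulfuration and glutathione synthesis 1 of 4 was higher, *Cth*, which makes cysteine from cystathionine, at 2.7 ± 0.708 and 0.441 ± 0.230 CPM (2.55, SE 0.41, edgeR adjusted p = 0.00241). Of 5 other serine-using enzymes 0 were called by edgeR, with 1 at an unadjusted p under 0.05 and 1 by DESeq2, the nearest being serine racemase *Srr* (0.51, SE 0.16, edgeR adjusted p = 0.0521). In control against naive libraries the same 4 lists had 3 higher and 2 lower of 6, 1 higher and 2 lower of 7, 3 higher of 4 and 3 higher of 5. *Gldc*, the glycine decarboxylase, averaged 5.47 ± 2.83 CPM in control and 0.101 ± 0.162 CPM in naive libraries (5.44, SE 0.72), and *Ahcy* 144 ± 11.8 and 64.9 ± 9.53 CPM (1.15, SE 0.08). *Gldc* entered this test only through the control libraries, where it is high. *Sardh*, a gene of the first list, averaged 0 CPM in control and in Tra2bKO libraries and 0.846 CPM in naive libraries. It was called lower against naive libraries in both groups, and entered both tests only through the naive libraries. Tra2bKO against naive libraries gave 3 higher and 1 lower of 6, 2 higher of 8, 2 higher of 4 and 1 higher of 6.

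Of 15 tested genes in a list of *Atf4* and its other targets, 9 were higher and 0 lower in Tra2bKO than in control libraries, with a list median of 0.69 (0 lower also at an unadjusted p under 0.05 and by DESeq2). *Asns*, asparagine synthetase, averaged 188 ± 6.90 CPM in Tra2bKO and 40.0 ± 11.8 CPM in control libraries (2.24, SE 0.22, edgeR adjusted p = 0.000159). *Pck2*, the mitochondrial phosphoenolpyruvate carboxykinase, averaged 48.9 ± 4.13 and 9.78 ± 1.12 CPM (2.32, SE 0.12, edgeR adjusted p = 2.52e-06), *Chac1*, a glutathione-degrading enzyme, 2.67 ± 1.05 and 0.218 ± 0.0784 CPM (3.47, SE 0.35) and *Trib3*, a pseudokinase, 14.7 ± 0.776 and 3.87 ± 0.806 CPM (1.93, SE 0.20). *Atf4* itself, named for its place in the list and after its value was seen, averaged 181 ± 13.4 CPM in Tra2bKO and 125 ± 4.76 CPM in control libraries (0.54, SE 0.06, edgeR adjusted p = 0.000462). Without Tra2bKO library 2, 6 of the genes were called. In control against naive libraries 6 of 15 were higher and 3 lower (list median 0.21), with *Asns* at 1.88 (SE 0.26) and *Ddit3*, a stress transcription factor, at -1.43 (SE 0.10). In Tra2bKO against naive libraries 9 were higher and 2 lower. Of *Myc*, *Mycn* and *Max*, only *Myc* was called by edgeR between Tra2bKO and control libraries, at 83.0 ± 5.14 CPM in Tra2bKO and 114 ± 12.9 CPM in control libraries (-0.45, SE 0.12, edgeR adjusted p = 0.0239, and 0.0562 and 0.236 without Tra2bKO library 1 and 2). *Myc* was also lower in control than in naive libraries (-0.51, SE 0.08, edgeR adjusted p = 1.01e-05), where *Mycn* was higher (2.87, SE 0.53). *Mycn* entered this test only through the control libraries, where it is higher.

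**Figure D5:**
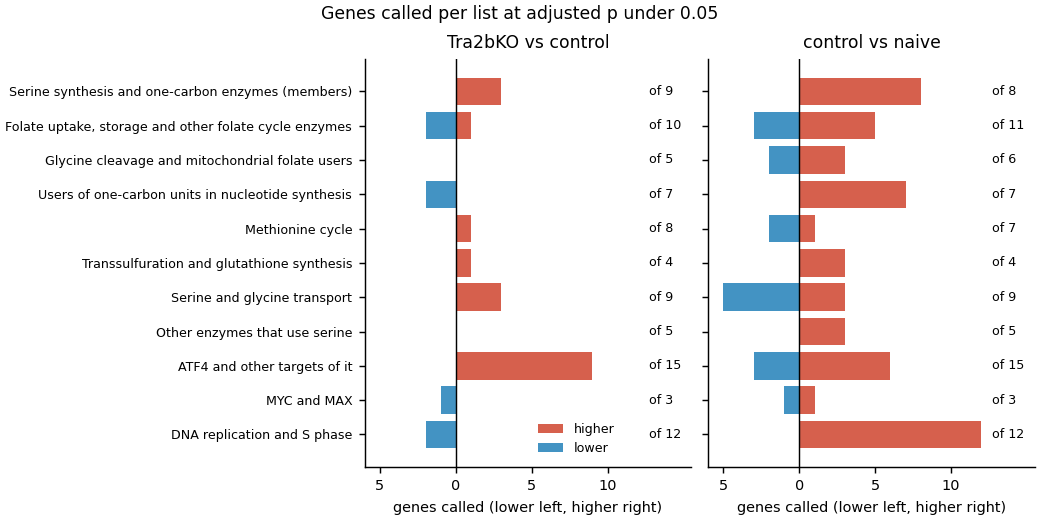
Number of genes called per list at adjusted p under 0.05, lower to the left of 0 and higher to the right, with the number tested at the right edge of each panel. Calls in Tra2bKO against control libraries are most numerous in the list of *Atf4* and its targets (9 of 15), and in control against naive libraries 12 of 12 DNA replication genes and 7 of 7 nucleotide synthesis genes are higher.

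The genes whose pattern over the 18 libraries was most like that of a member were found by the root mean square difference of log2 CPM, centred on each gene's mean, among 7077 genes of sufficient level. These differences describe likeness only. For *Phgdh* they were *Erh* (0.0763), *Mrps22* (0.0773) and *Yars* (0.0784), against a median of 0.494 over all candidates. For *Psat1* they were *Rrm1* (0.0835), *Hnrnpll* (0.0873) and *Orc6* (0.0883), against a median of 0.688. *Shmt2* lay nearest to *Mars* (0.0855), *Syncrip* (0.0953) and *Prps1* (0.101), against 0.418, and *Mthfd2* to *Ezh2* (0.106), *Lancl2* (0.126) and *Aars* (0.134), against 0.575. For *Aldh1l2* the nearest candidates, *Chchd10*, *Ccng1* and *Fasl*, differed by 1.51 to 1.54 and the median candidate by 1.85. Candidates needed a mean log2 CPM of at least 4, far above *Aldh1l2*. Genes as low as *Aldh1l2* were therefore not searched, and these values do not show whether one is like it.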

How the data were processed

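RNA of 18 libraries was purified with QIAGEN miRNeasy Micro columns and amplified with a SMARTer ultra-low polyA kit, per the labels. The deposited gene and transcript tables hold estimated counts, which the authors wrote as whole numbers, and 0 genes differ from the sum of their transcripts. The submitters' processing notes name StringTie 2.1.0, STAR 2.7.1a, DESeq2 1.30.1, SAMtools 1.9 and R 4.0.5, and the builds mm10 and mm39 without a role. Since all 55536 Ensembl identifiers occur in GENCODE M21, positions refer to GRCm38. Left out were 26248 rows with numeric identifiers (0.0513 to 0.132% of counts), which name no gene, and 97 spike-in rows with 0 counts.

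For each comparison all genes of its 2 groups were filtered (filterByExpr, minimum count 10), TMM-normalised and fitted with the robust quasi-likelihood method of edgeR 4.0.16 (R 4.3.3, prior count 2). Benjamini-Hochberg adjustment covered all genes tested, with a threshold of 0.05. SE refers to the log2 fold change, and SD to the libraries of a group. Log2 ratios (0.5 added to each count) and transcript shares were tested by permuting libraries exactly, two-sided, on the difference in means (SciPy 1.17.1). Confidence intervals on counts cover counting error only. Near-identical copies came from BLAST 2.17.0. The fits were checked on simulated data.

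The 9 genes and the gene lists were chosen with earlier results of these data known. Of 156 listed genes 155 were matched. Named are, per list and comparison, up to 4 tested genes with the smallest p, of which 1 is not reported here. Alternatives comprised DESeq2 1.42.0, RLE factors, scaling to total counts, no filter, genes with mean log2 CPM from 4 upwards, 1 fit of all groups, a block on replicate number, voom of limma 3.58.1, removal of a length and GC trend, and omission of each library.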

Additional observations from a re-analysis of the deposited data

Results flagged for a closer look

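In 40 sets of 8 values (levels, main transcript shares and ratios of the 9 genes in control and in naive libraries) 3 had 1 library far from the others, where chance gives about 1 set in 20. *Aldh1l2* stood at 0.0665 CPM in control library 6, and the other 7 controls were listed at 0. The share of Psph-201 in the *Psph* count was 70.5% in naive library 8 and 89.7 to 92.6% in the other naive libraries. Psph-202, another coding transcript, reached its highest share among naive libraries at 22.8%, where the group median was 0. The share of Mthfd1l-201 in the *Mthfd1l* count was 31.8% in control library 1 and 46.0 to 58.0% in the other controls.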

How the results depend on the processing

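Members called between Tra2bKO and control libraries numbered 3, and 2 to 5 when 1 library was left out (5 without control library 1, with *Psat1* and *Psph* added). Calls over all genes numbered 2772 in this comparison, 1847 with voom, and 651 to 2858 when 1 library was left out. With the replicate number as a block both counts were 0, and 3322 genes were called in place of 8837 between Tra2bKO and naive libraries. The labels do not say whether the number pairs libraries. Over 20750 genes, residuals of same-numbered control and naive libraries correlated at -0.025 to 0.0321, 1 of 8 highest with its own number. Those of Tra2bKO and control libraries correlated at 0.0104 and 0.0506, 1 of 2 highest with its own number. Residuals of 2 libraries mirror each other, and low correlations over all genes cannot exclude a pairing. Restricting the fit to a mean log2 CPM from 4 upwards gave 6243 calls among 7765 genes tested for control against naive libraries, in place of 12213 among 17078. For Tra2bKO against naive libraries it gave 4964 among 7873, in place of 8837 among 19776. Fewer genes were tested, and the share of them called did not fall. Members called in control against naive libraries were 8 under every alternative run. Ratios that differed numbered 3 in place of 9 with p as 2 times the smaller tail, and leaving out a Tra2bKO library was not run for ratios, since 1 against 8 cannot reach the threshold. Reversed were *Ahcyl2* in control against naive libraries, at 0.0127 with the length and GC trend removed in place of -0.38, and *Alas2* in Tra2bKO against naive libraries, at -0.64 without Tra2bKO library 1 in place of 2.11 (2.998 without library 2). The cause of these changes was not tested. Of 4413 alternatives to 210 results on single genes, lists, ratios or shares, 4131 were classed as unchanged, while 251 lost a call or calls and 29 gained. For single genes, ratios and shares, unchanged meant the same direction and side of the threshold. For lists it meant only a similar number of calls, whatever their direction. Total counts alone moved the median of all genes in Tra2bKO against naive libraries by -0.11, and trend removal by 0.14. With 2 Tra2bKO libraries, and *Aldh1l2* at 184 counts in them, small differences are beyond what these data resolve.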
